A study of Mus musculus with 16 samples.

Results

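The presynaptic active zone scaffold genes are 10 genes whose proteins build the release site of the nerve terminal, and they were taken by their symbols: Bsn, Pclo, Rims1, Rims2, Unc13a, Erc1, Erc2, Ppfia3, Rimbp2 and Cask. Each symbol matched 1 gene, 10 of the 55359 genes in the table, and all 10 were among the 17569 genes that passed the filter on low values. The study sequenced hippocampal RNA from mice of the C57BL/6JNarl strain, with 4 libraries for each of 4 groups: chronic-stressed females, chronic-stressed males, non-stressed females and non-stressed males. The sample labels name the tissue as brain, and the series' design text names the hippocampus. The labels give a pool size for each library, which is 3 in chronic-stressed females, non-stressed females and non-stressed males. In chronic-stressed males it is 2, 2, 1 and 2 in libraries 1 to 4. They do not say whether pools shared animals, so p-values measure only the spread between these libraries. The kind and length of the stress and the age of the mice are not given in the sources used here.

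The active zone is the patch of presynaptic membrane where synaptic vesicles dock, are primed and fuse. Bassoon and piccolo are very large proteins that span its dense cytomatrix, while RIM, RIM-binding protein, Munc13, ELKS and liprin-alpha proteins bind each other and hold vesicles close to voltage-gated calcium channels. CASK links this scaffold to neurexins, the adhesion molecules of the presynaptic membrane. In the hippocampus these proteins are known for setting release probability and for presynaptic plasticity at glutamatergic synapses.

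The 8 members present in the RefSeq promoter table (GRCm38.p6) were searched on both strands over the 250 bases before the gene start for the GC box GGGCGG, the cyclic AMP response core TGACG and its full palindrome TGACGTCA, which contains that core. The other motifs were the TATA box TATAAA, the centre of the NRF1 motif and the glucocorticoid response element. Of 32851 mouse promoters of the same length, 32.7% held the GC box, 17.8% the cyclic AMP core, 1.5% the palindrome, 12.4% the TATA box, 0.8% the NRF1 motif and 0.4% the glucocorticoid response element. No match to the glucocorticoid element, the TATA box or the palindrome was found in the 8 windows. The windows shown are those of the 3 members with the largest differences between stressed and non-stressed libraries, and of Ppfia3, which did not pass in either sex. Letters run 5′ to 3′ on the gene's strand, and capitals mark the motif matches on either strand. The Bsn window (chr9:108190384-108190633, minus strand) holds 2 NRF1 motifs and has a GC content of 71.6%, against a median of 52.4% over all promoters. The Erc1 window (chr6:119848151-119848400, minus strand) holds 2 GC boxes and 1 cyclic AMP core and has a GC content of 76.0%. The Pclo window (chr5:14514668-14514917, plus strand) holds 2 GC boxes, with a GC content of 61.2%. The Ppfia3 window (chr7:45367020-45367269, minus strand) holds 3 GC boxes and 1 cyclic AMP core, with a GC content of 67.6%.
Bsn: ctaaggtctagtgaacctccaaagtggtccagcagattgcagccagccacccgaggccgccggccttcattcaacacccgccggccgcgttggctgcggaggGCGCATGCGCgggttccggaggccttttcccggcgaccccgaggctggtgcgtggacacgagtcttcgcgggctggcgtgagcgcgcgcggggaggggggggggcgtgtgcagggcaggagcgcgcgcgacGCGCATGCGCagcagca
Erc1: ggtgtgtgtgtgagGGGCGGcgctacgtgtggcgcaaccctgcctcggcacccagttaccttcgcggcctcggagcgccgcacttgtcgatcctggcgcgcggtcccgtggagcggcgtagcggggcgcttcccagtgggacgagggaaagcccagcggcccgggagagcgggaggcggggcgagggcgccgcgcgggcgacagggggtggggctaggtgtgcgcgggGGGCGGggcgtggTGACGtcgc
Pclo: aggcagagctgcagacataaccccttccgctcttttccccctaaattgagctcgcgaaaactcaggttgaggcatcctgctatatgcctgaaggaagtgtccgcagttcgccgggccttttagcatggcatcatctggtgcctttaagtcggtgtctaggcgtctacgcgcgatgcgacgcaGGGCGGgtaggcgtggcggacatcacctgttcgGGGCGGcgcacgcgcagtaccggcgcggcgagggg
Ppfia3: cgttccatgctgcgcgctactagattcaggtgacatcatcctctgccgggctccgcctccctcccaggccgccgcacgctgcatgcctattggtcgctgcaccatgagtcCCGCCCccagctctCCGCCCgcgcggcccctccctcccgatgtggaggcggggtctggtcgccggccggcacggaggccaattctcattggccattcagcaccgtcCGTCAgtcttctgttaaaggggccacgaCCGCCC

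Levels were read as counts per 1000000 counts of the library (CPM), and levels of different genes as the authors' FPKM, which divides by exonic length as well. All 10 members were expressed in every library. In stressed males Unc13a had the highest FPKM of the 10, with 31.8 ± 3.37 (SD, n = 4), and Erc1 the lowest, with 4.27 ± 0.357. The same genes stood at both ends of the order in the other groups: Unc13a averaged 31.8 ± 1.21 FPKM in stressed females, 19.9 ± 8.33 in non-stressed females and 23.0 ± 3.47 in non-stressed males, and Erc1 averaged 4.3 ± 0.151, 2.19 ± 0.663 and 2.3 ± 0.26 FPKM in those groups. Bsn stood in place 2 of the 10 in stressed mice of both sexes, at 26.5 ± 1.88 FPKM in females and 27.0 ± 3.82 FPKM in males. In non-stressed mice it stood in place 6, at 13.7 ± 5.25 FPKM in females and 14.6 ± 2.45 FPKM in males. Neighbours in this order mostly overlapped. In stressed males the first 6 places (Unc13a, Bsn, Rims1, Rimbp2, Erc2, Ppfia3) each overlapped the next, and Pclo, Rims2, Cask and Erc1 were separated from the gene above and from each other. In stressed females, whose libraries lay closest together, only Bsn and Rims1, and Rimbp2 and Erc2, overlapped as neighbours.

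In stressed males, 6 of the 10 members were higher than in non-stressed males, none was lower, and 4 did not pass (edgeR quasi-likelihood test, Benjamini-Hochberg adjusted p under 0.05 over all 17569 genes); 18.5% of all tested genes were higher by this test. Those 6 were Bsn, Pclo, Rims1, Rims2, Erc1 and Erc2, and 7 members (these and Unc13a) had no overlap between the groups' libraries in CPM, which held in this direction for 20.4% of tested genes. In stressed females, 9 members were higher than in non-stressed females, none was lower, and only Ppfia3 did not pass; 22.1% of tested genes were higher. The same 9 had no overlap between groups, against 19.5% of tested genes. The median log2 fold change of the members was 0.40 in males and 0.50 in females, where the median of all tested genes was -0.03 in both sexes. By DESeq2, 7 members were higher in males (20.8% of tested genes) and 9 in females (24.2%). By limma on log2(FPKM + 0.5), 6 were higher in males (17.7% of tested genes) and 9 in females (23.0%), and neither tool called a member lower. At an unadjusted p under 0.05 by edgeR, 7 members were higher in males and 9 in females, and none was lower; 8613 of the 17569 tested genes in males and 9844 in females were under it in either direction. In bulk tissue, more cells or terminals of a kind and more RNA per cell cannot be told apart.

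All 10 members have a large exonic length, and genes with a large exonic length as a class were higher in the stressed libraries. The members' exonic lengths ran from 7.9 kb (Ppfia3) to 22.5 kb (Pclo), longer than 85.1% to 99.7% of tested genes. Of the 4500 tested genes over 6 kb, 44.0% were higher in stressed males and 4.82% lower, and 50.2% were higher in stressed females and 7.58% lower. Their median log2 fold change was 0.25 in males and 0.28 in females. Against these shares of the class stand 6 of 10 members higher in males and 9 of 10 in females. Genes over 6 kb took 43.33% to 44.22% of counts in the 8 stressed libraries and 31.77% to 40.11% in the 8 non-stressed ones. The 91 ribosomal protein genes, which are short, took 0.633% to 0.673% in stressed libraries and 0.906% to 1.901% in non-stressed ones, highest in non-stressed female libraries 4 and 1. The part of this difference between libraries in the members' values was addressed with a second fit, in which the trend of counts with exonic length and GC content was removed in each library. It is called the trend-removed fit, and its values stand beside each member. The shares of genes over 6 kb did not overlap between stressed and non-stressed libraries. Stress and other sources of the trend therefore cannot be told apart, and the fit removes both.

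Bsn encodes bassoon and lies on chr9:107973221-108067583 (GRCm39, minus strand), with 15.9 kb of exonic sequence. It had 371, 389.8, 502 and 461 CPM in stressed male libraries 1 to 4, against 183, 219.9, 256 and 270.3 CPM in non-stressed males. In stressed females it had 388, 411, 428 and 459.6 CPM, against 164, 251, 319.5 and 137 CPM in non-stressed females. Every stressed library was above every non-stressed one of its sex, and non-stressed females spread the most. The log2 fold change was 0.90 ± 0.20 (SE) in males (1.87-fold, adjusted p = 0.00217, edgeR) and 0.95 ± 0.20 in females (1.94-fold, adjusted p = 0.00118). In the trend-removed fit Bsn was higher as well, by 0.40 ± 0.10 in males (adjusted p = 0.00427) and 0.41 ± 0.10 in females (adjusted p = 0.00314) on the log2 scale; 16.6% of genes in males and 18.0% in females were higher in that fit. Among the 823 tested genes over 12 kb, 91.1% in males and 92.6% in females had a lower log2 fold change than Bsn.

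Pclo encodes piccolo, which shares several domains with bassoon, and lies on chr5:14564932-14913473 (plus strand), with 22.5 kb of exonic sequence. It had 324, 326, 345 and 315 CPM in stressed males, against 195, 184, 197 and 215 CPM in non-stressed males. Stressed females had 336, 324, 339.7 and 331 CPM, against 170.4, 202, 249 and 166 CPM in non-stressed females. The groups were far apart in both sexes. Its log2 fold change was 0.74 ± 0.10 in males (adjusted p = 3.3e-05) and 0.76 ± 0.10 in females (adjusted p = 2.5e-05), the smallest adjusted p among the members in each sex. Removal of the trend left 0.17 ± 0.05 in males (adjusted p = 0.0213) and 0.18 ± 0.05 in females (adjusted p = 0.0127). Between these 2 giant scaffold genes, the log2 ratio of Bsn to Pclo counts, which is not scaled to length, was 0.39 ± 0.18 in stressed males and 0.22 ± 0.21 in non-stressed males (SD, n = 4), and the difference of 0.17 did not pass (exact permutation test, 2-sided, p = 0.257, adjusted p = 0.514 over 12 ratio tests). It was 0.34 ± 0.11 in stressed females and 0.08 ± 0.30 in non-stressed females, a difference of 0.26 (exact p = 0.2, adjusted p = 0.48).

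**Figure D1:**
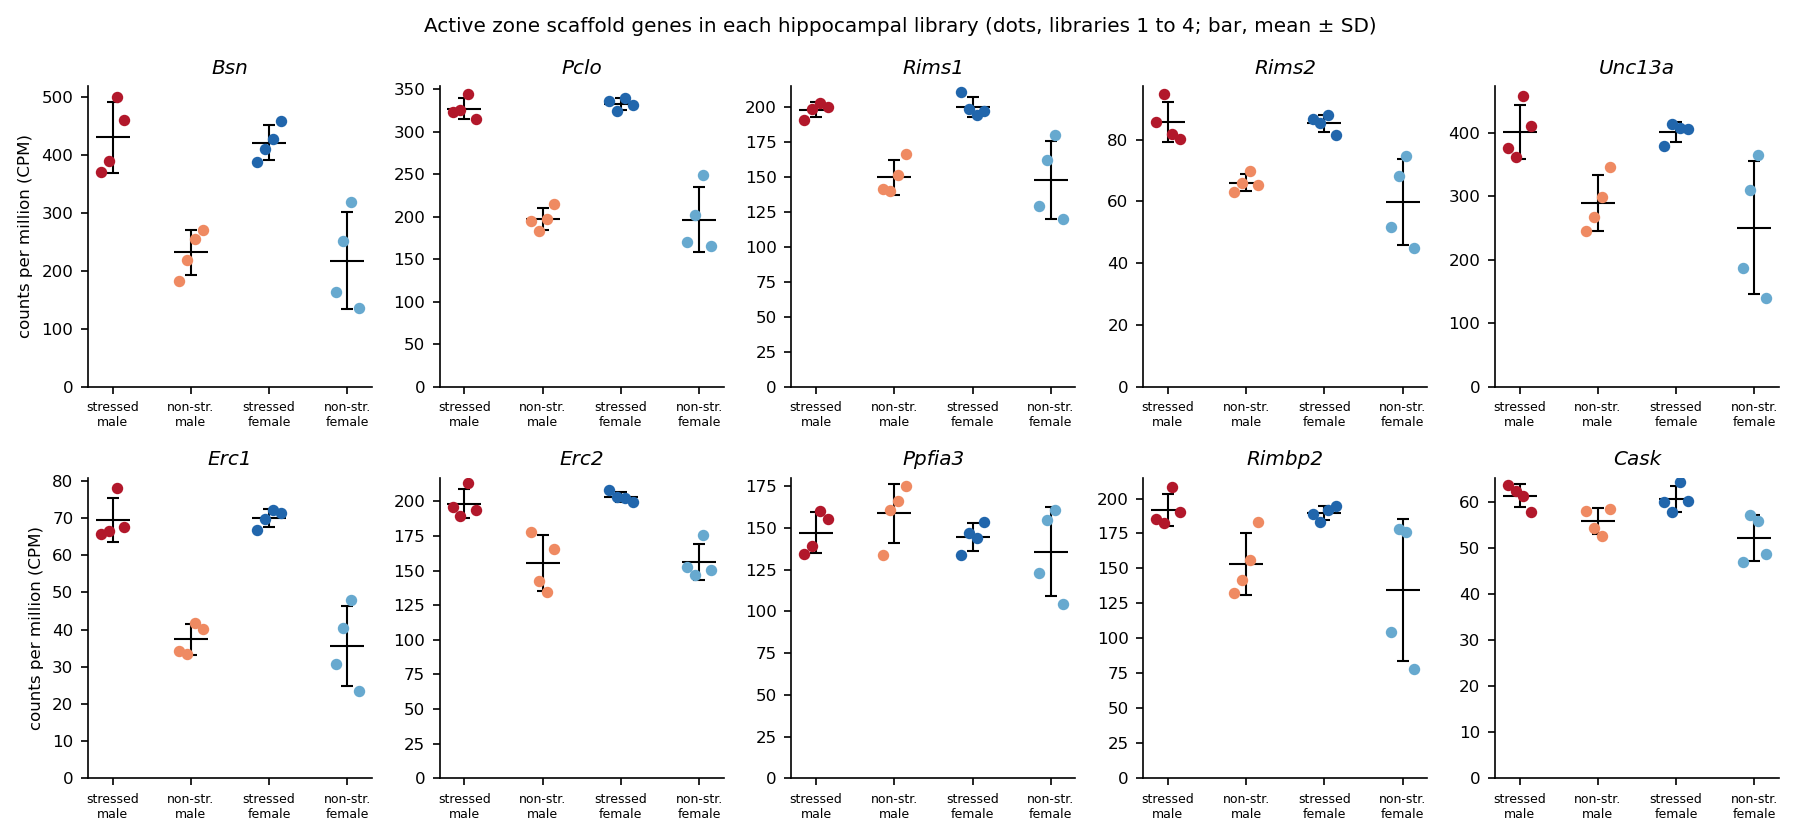
CPM (counts per 1000000 counts of the library, y axis from 0) of the 10 members in each library, by group, with stressed left of non-stressed within each sex; dots are libraries 1 to 4 and bars the mean ± SD. Bsn, Pclo and Erc1 show the widest separation between stressed and non-stressed libraries, Ppfia3 overlaps in both sexes, and non-stressed females spread the most for every gene but Erc2.

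Erc1 and Erc2 encode the ELKS proteins, coiled-coil scaffolds that bind RIM; Erc1 is expressed in many tissues and Erc2 (CAST) mainly in brain. Erc1 lies on chr6:119547757-119825128 (minus strand) with 16.3 kb of exonic sequence. It had 65.8, 66.4, 78.2 and 67.6 CPM in stressed males, against 34.1, 33.3, 41.6 and 40.3 CPM in non-stressed males. Stressed females had 66.7, 69.7, 72.2 and 71.5 CPM, against 30.6, 40.3, 48.0 and 23.5 CPM in non-stressed females. The groups did not overlap in either sex. The log2 fold change of Erc1 was 0.91 ± 0.15 in males (1.88-fold, adjusted p = 2.2e-04) and 0.97 ± 0.15 in females (1.96-fold, adjusted p = 1.1e-04). The trend-removed fit gave 0.40 ± 0.08 in males (adjusted p = 0.00129) and 0.44 ± 0.08 in females (adjusted p = 5.5e-04).

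Erc2 (chr14:27344385-28200494, plus strand, 9.7 kb) had a smaller difference. It had 196, 189, 213 and 194 CPM in stressed males, against 178, 143, 134 and 166 CPM in non-stressed males, and 208, 203, 202 and 199 CPM in stressed females, against 152, 147, 175 and 150.3 CPM in non-stressed females. No library of a stressed group fell among those of its non-stressed group. The log2 fold change was 0.37 ± 0.09 in males (adjusted p = 0.00321) and 0.38 ± 0.09 in females (adjusted p = 0.00213), and in the trend-removed fit 0.05 ± 0.08 in males and 0.02 ± 0.08 in females (adjusted p = 0.696 and 0.847). The log2 ratio of Erc1 to Erc2 counts was -1.51 ± 0.05 in stressed males and -2.05 ± 0.28 in non-stressed males, a difference of 0.54. It was -1.54 ± 0.08 in stressed females and -2.18 ± 0.39 in non-stressed females, a difference of 0.65. Neither ratio overlapped between its groups, and each gave the smallest p that 4 against 4 libraries allow (exact permutation test, p = 0.0286), but the adjusted p over the 12 ratio tests was 0.171. Erc1 is also the longer gene of the pair; in the trend-removed fit the log2 fold changes of Erc1 and Erc2 stood at 0.40 and 0.05 in males and at 0.44 and 0.02 in females.

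**Figure D2:**
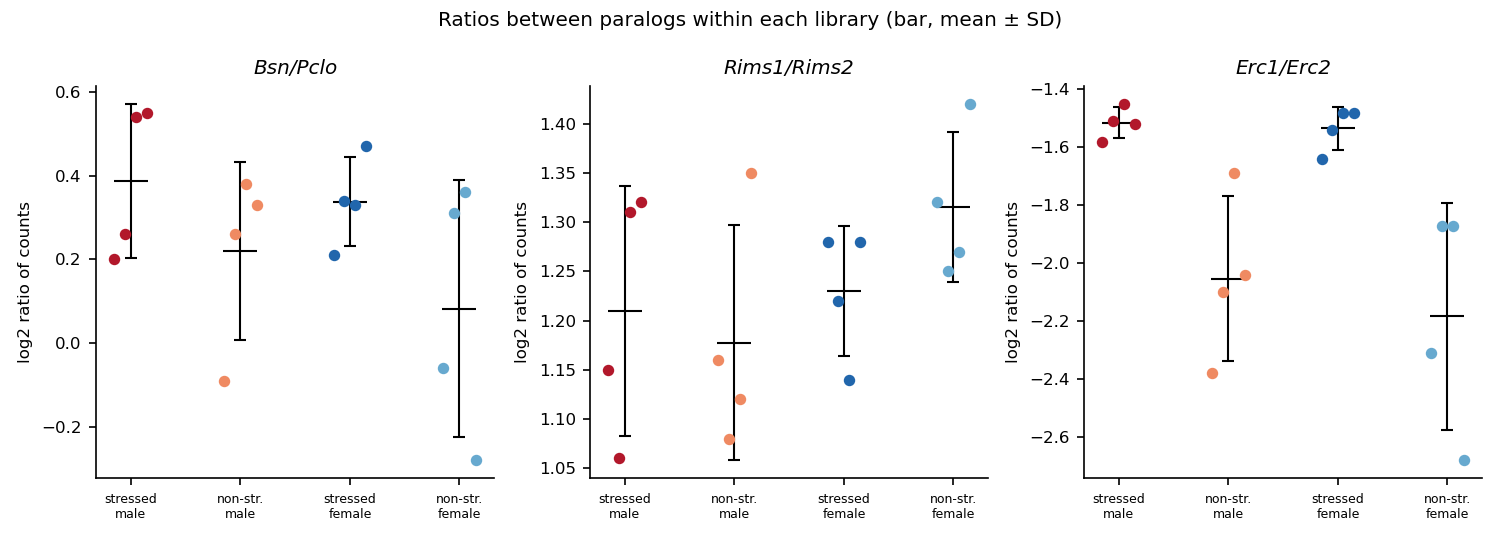
Log2 ratio of counts between paralogs within each library, for Bsn/Pclo, Rims1/Rims2 and Erc1/Erc2, by group, with stressed left of non-stressed; dots are libraries and bars the mean ± SD. Erc1/Erc2 is higher in every stressed library than in every non-stressed library of the same sex, by 0.54 in males and 0.65 in females in mean log2 ratio, and the other ratios overlap.

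Rims1 and Rims2 encode RIM proteins, which bind Rab3 on vesicles, Munc13 and calcium channels. Rims1 (chr1:22356475-22845203, minus strand, 8.1 kb) had 190.5, 198, 203 and 199.8 CPM in stressed males, against 142, 139.6, 151 and 167 CPM in non-stressed males. In stressed females it had 210.4, 199, 194 and 197 CPM, against 129, 162, 179.6 and 120.0 CPM in non-stressed females. Stressed libraries were above non-stressed ones without overlap in both sexes. Rims1 had a log2 fold change of 0.41 ± 0.10 in males (adjusted p = 0.0043) and 0.44 ± 0.10 in females (adjusted p = 0.00241), and 0.15 ± 0.07 in both sexes in the trend-removed fit, which did not pass (adjusted p = 0.0945 in males and 0.0898 in females).

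Rims2 (chr15:39061656-39547768, plus strand, 10.4 kb) had 80.3 to 94.9 CPM in stressed males, against 63.2 to 69.7 CPM in non-stressed males, and 81.5 to 87.9 CPM in stressed females, against 44.9 to 74.6 CPM in non-stressed females. It did not overlap between groups in either sex. For Rims2 the log2 fold change was 0.39 ± 0.11 in males (adjusted p = 0.0128) and 0.51 ± 0.11 in females (adjusted p = 0.00175). Once the trend was removed it was 0.02 ± 0.06 in males and 0.12 ± 0.06 in females, neither past the threshold (adjusted p = 0.801 and 0.147). The log2 ratio of Rims1 to Rims2 counts was 1.21 ± 0.12 in stressed males and 1.18 ± 0.12 in non-stressed males (difference 0.03, exact permutation p = 0.83). It was 1.23 ± 0.07 in stressed females and 1.31 ± 0.07 in non-stressed females (difference -0.08, exact permutation p = 0.171); the adjusted p over the 12 ratio tests was 0.857 in males and 0.48 in females.

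Unc13a encodes Munc13-1, which primes docked vesicles for fusion (chr8:72077061-72124401, minus strand, 12.6 kb). It had 376, 362, 458 and 410.3 CPM in stressed males, against 245, 268, 299.6 and 346 CPM in non-stressed males. In stressed females it had 379, 413, 408 and 406 CPM, against 187, 310.5, 366 and 139.8 CPM in non-stressed females. The groups did not overlap in either sex, but non-stressed female libraries 1 and 4 lay far below libraries 2 and 3. Unc13a had a log2 fold change of 0.68 ± 0.21 in females (adjusted p = 0.0133) and did not pass in males, at 0.48 ± 0.21 (adjusted p = 0.0741). The male value passed when non-stressed female library 3 (0.51, adjusted p = 0.0261) or 4 (0.48, adjusted p = 0.0129) was left out, and it passed by DESeq2 (adjusted p = 0.0481). All groups share 1 estimate of the spread, and the scaling was also made anew in each fit. Removing the trend gave Unc13a 0.07 ± 0.12 in males and 0.24 ± 0.12 in females, neither past the threshold (adjusted p = 0.703 and 0.121). Colgalt1 overlaps the 3′ end of Unc13a on the opposite strand, with counts of up to 36.6% of those of Unc13a; whether counting used strand is not stated in the sources used here, and the part of Colgalt1 was not tested.

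Rimbp2 encodes RIM-binding protein 2, which ties RIM to calcium channels (chr5:128834855-129030550, minus strand, 8.6 kb). It had 186, 183, 208 and 190.3 CPM in stressed males, against 132, 142, 156 and 183 CPM in non-stressed males, and the groups overlapped. In stressed females it had 189, 183, 192 and 194 CPM, against 105, 178, 176 and 78.2 CPM in non-stressed females, which did not overlap. Its log2 fold change was 0.50 ± 0.19 in females (adjusted p = 0.0366) and did not pass in males, at 0.33 ± 0.19 (adjusted p = 0.165). The female call was lost when any 1 of 6 libraries was left out: each of the 4 stressed female libraries (0.48 to 0.52, adjusted p = 0.0549 to 0.0716), non-stressed female library 1 (0.39, adjusted p = 0.118) or 4 (0.32, adjusted p = 0.0821). The male value passed without non-stressed female library 4 (adjusted p = 0.0422). Values in the trend-removed fit were 0.05 ± 0.11 in males and 0.18 ± 0.11 in females (adjusted p = 0.765 and 0.219).

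Cask encodes a membrane-associated guanylate kinase and lies on chromosome X (chrX:13383319-13717606, minus strand, 9.1 kb). It had 57.9 to 63.6 CPM in stressed males, against 52.7 to 58.5 CPM in non-stressed males, and 57.8 to 64.5 CPM in stressed females, against 47.0 to 57.2 CPM in non-stressed females. These were the narrowest differences among the members that passed in either sex. The log2 fold change was 0.21 ± 0.07 in females (adjusted p = 0.0224) and did not pass in males, at 0.15 ± 0.07 (adjusted p = 0.118). The female call was lost without stressed female library 3 (0.18, adjusted p = 0.0725) or non-stressed female library 1 (0.16, adjusted p = 0.0856). In the trend-removed fit the sign of Cask turned, to -0.15 ± 0.06 in males and -0.11 ± 0.06 in females, without passing (adjusted p = 0.0593 and 0.139). Gpr34 lies within Cask on the opposite strand, with counts of up to 37.1% of those of Cask, and its part was not tested.

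Ppfia3 encodes liprin-alpha-3, which binds RIM, CASK and receptor-type phosphatases (chr7:44988546-45016443, minus strand, 7.9 kb). It had 135, 139, 160.1 and 155 CPM in stressed males, against 134, 161, 166 and 175 CPM in non-stressed males. In stressed females it had 134, 147, 144 and 154 CPM, against 123, 155, 161 and 104 CPM in non-stressed females. The groups overlapped in both sexes. It was the only member that passed in neither sex, with log2 fold changes of -0.10 ± 0.12 in males (adjusted p = 0.536) and 0.09 ± 0.12 in females (adjusted p = 0.543). Of the 1959 tested genes between 6 and 8 kb, 19.4% in males and 37.9% in females had a lower log2 fold change; their median was 0.16 in males and 0.19 in females. Once the length and GC trend was removed, Ppfia3 was lower in stressed mice, at -0.36 ± 0.05 in males (adjusted p = 3.4e-05) and -0.25 ± 0.05 in females (adjusted p = 8.7e-04) on the log2 scale, as were 15.4% of genes in males and 21.3% in females. With the trend of length alone removed, it was lower in males (-0.32 ± 0.09, adjusted p = 0.0151) and did not pass in females (-0.16 ± 0.09, adjusted p = 0.195). On the scale of TPM, which moves the median of all tested genes up by 0.22 in males and 0.24 in females, the male value was 0.13 ± 0.15 and the female value 0.36 ± 0.15 (limma on log2(TPM + 0.5), adjusted p = 0.495 and 0.0583). An opposite-strand gene 1158 bases from Ppfia3, Gm45619, had counts of up to 18.2% of those of Ppfia3, and its part was not tested.

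**Figure D3:**
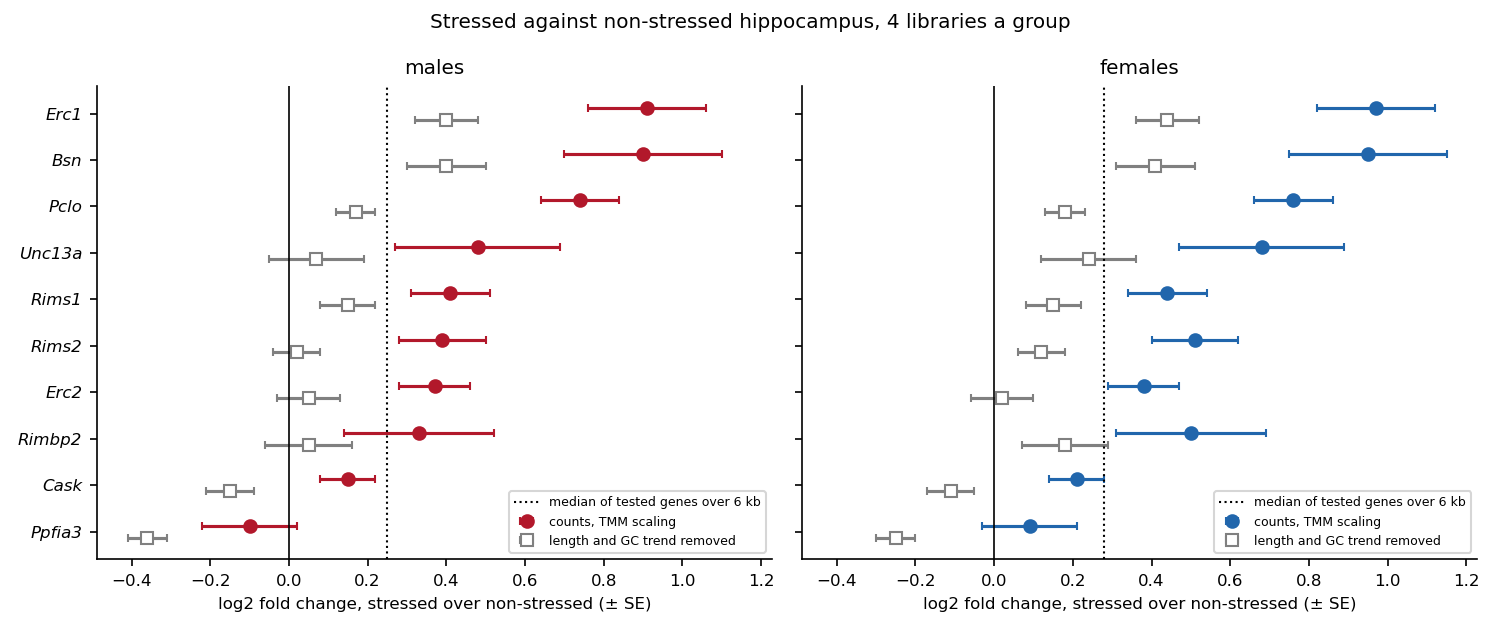
Log2 fold change of stressed over non-stressed libraries (x axis, ± SE) for each member in males (left) and females (right); filled circles are the test on counts, open squares the same with the trend of exonic length and GC content removed, and the dotted line the median of tested genes over 6 kb (0.25 in males, 0.28 in females). Bsn, Erc1 and Pclo are higher and past the threshold in both forms and both sexes. Once the trend is removed, Ppfia3 is lower and past the threshold in both sexes, and Cask lies below 0 without passing.

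In all, the trend-removed fit had 3 of the 10 members higher in each sex (Bsn, Erc1 and Pclo). In each sex 1 was lower (Ppfia3) and 6 did not pass. Of all genes in that fit, 16.6% in males and 18.0% in females were higher, and 15.4% and 21.3% lower. The median of the members was then 0.06 in males and 0.16 in females. The order of the members followed their length: across the 10 genes, the log2 fold change and log2 exonic length had a Pearson r of 0.83 in males and 0.82 in females, against 0.19 and 0.18 across all 17569 tested genes. These genes share libraries and are not independent replicates. In their own length class, Bsn, Erc1 and Pclo lay above the upper quartile in both sexes (0.67 in males and 0.69 in females for genes over 12 kb). Unc13a was close to the class median of 0.46 in males, with 52.9% of the class below it, and in females, where the median was 0.48, 73.3% of the class was below it. Of the 1718 genes between 8 and 12 kb, 33.5% in males and 41.1% in females had a lower log2 fold change than Cask, while 58.5% to 68.7% in males and 59.7% to 74.7% in females were below Rims1, Rims2, Erc2 and Rimbp2.

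**Figure D4:**
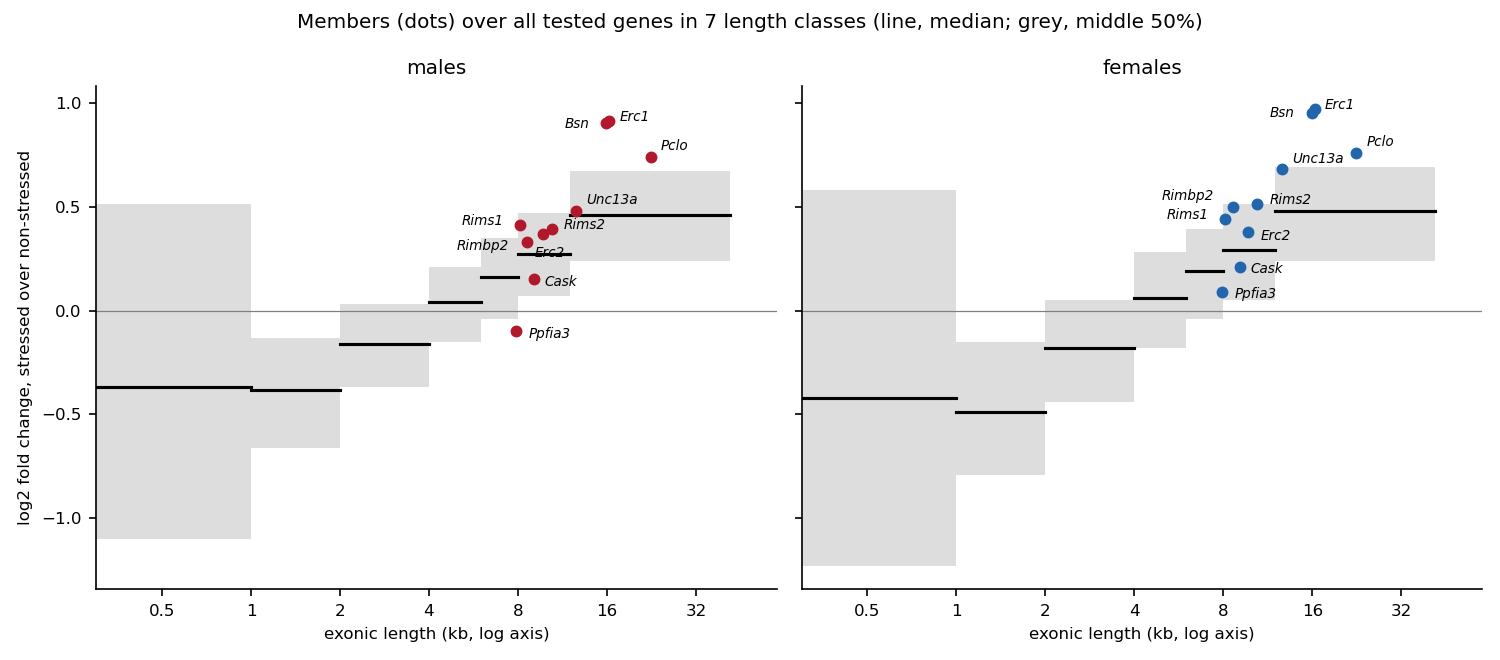
Log2 fold change of stressed over non-stressed libraries (y axis) against exonic length in kb (log axis) in males (left) and females (right); dots are the 10 members, and for each of 7 length classes of all tested genes the line is the median and the grey band the middle 50%. Above 2 kb the class median goes up with length, to 0.46 in males and 0.48 in females over 12 kb, where Bsn, Erc1 and Pclo lie above the band; Ppfia3 lies below the band in males.

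Within groups, the same libraries were low or high for most members. Non-stressed female library 4 had the lowest CPM of its group for 8 of the 10 members, and library 3 the highest for 8. The SD of log2 CPM in this group reached 0.64 for Unc13a, 0.59 for Rimbp2 and 0.56 for Bsn, against at most 0.10 for any member in stressed females. Erc2 and Cask spread least there, at 0.12 and 0.14. The 10 members together took 0.101% of counts in non-stressed female library 4, 0.116% in library 1, 0.157% in library 2 and 0.18% in library 3. Genes over 6 kb took 31.77%, 33.76%, 36.93% and 40.11% of counts in those same libraries, in the same order. In stressed males, library 3, the one with a pool size of 1 and the largest total (32.5 M counts), had the highest CPM for 8 of the 10 members, with a share of 0.231% against 0.199% to 0.213% in the other libraries. The 4 stressed female libraries had shares of 0.206% to 0.216%.

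**Figure D5:**
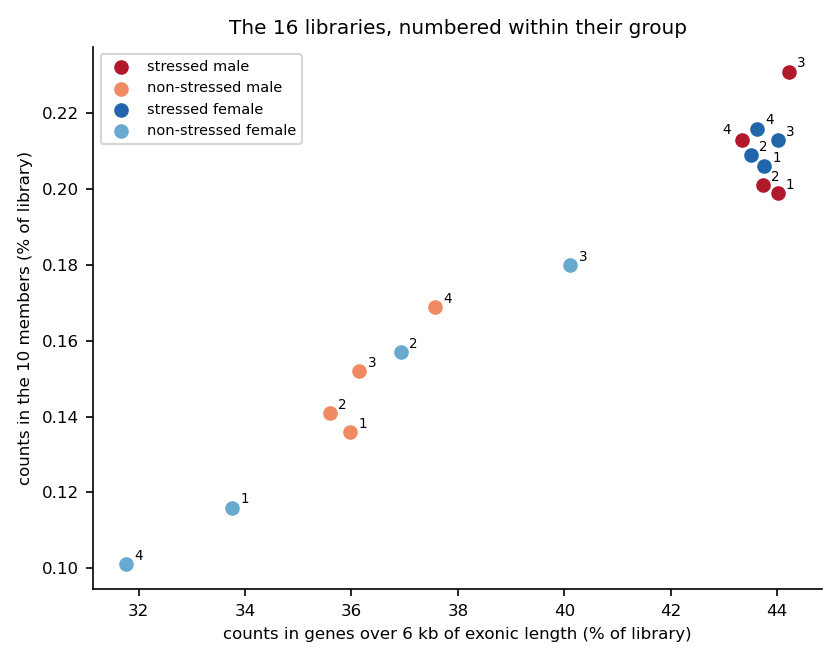
Share of counts in the 10 members (y axis, % of library) against the share in genes over 6 kb of exonic length (x axis, % of library), 1 point per library, coloured by group and numbered within it. The 8 stressed libraries lie together between 43.33% and 44.22%, and the 8 non-stressed ones spread from 31.77% to 40.11%, from non-stressed female library 4, lowest on both axes, to non-stressed female library 3, highest on both among the non-stressed.

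Without non-stressed female libraries 1 and 4, which had the lowest member shares, 6 members were higher in stressed females: Bsn (0.59 ± 0.15, adjusted p = 0.00566), Erc1 (0.69 ± 0.11, adjusted p = 6.1e-05), Pclo (0.59 ± 0.08, adjusted p = 3.4e-05), Rims1 (0.26 ± 0.08), Rims2 (0.29 ± 0.07) and Erc2 (0.36 ± 0.10). Unc13a (0.28 ± 0.12, adjusted p = 0.0958), Rimbp2 (0.13 ± 0.10, adjusted p = 0.369) and Cask (0.13 ± 0.07, adjusted p = 0.148) no longer passed, and Ppfia3 had -0.09 ± 0.10. The fold of Bsn, Rims1, Rims2, Unc13a, Rimbp2 and Cask on the log2 scale was over 1.5 times larger with those 2 libraries than without them. In the same fit, 9 members were higher in stressed males, all but Ppfia3, and 15.9% of tested genes were higher in females and 27.0% in males. The estimate of spread is shared by all groups, and male log2 fold changes moved as well, for Unc13a from 0.48 to 0.51.

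The stress difference was compared between the sexes, and the sexes with each other, for every member. None of the 10 passed in the interaction, in which the female minus the male stress effect ran from 0.01 (Erc2) to 0.20 (Unc13a) on the log2 scale, with SE of 0.10 to 0.29 (adjusted p = 1.0 for each, edgeR). These signs rest on non-stressed female libraries 1 and 4: without them all 10 values were below 0, from -0.34 ± 0.19 (Bsn) to -0.03 ± 0.13 (Erc2 and Ppfia3), and none passed (lowest adjusted p 0.644). With all 16 libraries, no gene of the 17569 passed in the interaction (0.0%); 374 had an unadjusted p under 0.05, none of them a member, and DESeq2 called 0 genes and limma on log2(FPKM + 0.5) 0. Females against males also gave no member past the threshold: in stressed mice the log2 differences ran from -0.04 to 0.03 (lowest adjusted p 1.0), and in non-stressed mice from -0.22 (Ppfia3) to 0.02 (lowest adjusted p 0.651). Without non-stressed female libraries 1 and 4 the non-stressed values ran from -0.00 (Ppfia3) to 0.30 ± 0.15 (Bsn), with 0.20 ± 0.08 for Pclo and 0.23 ± 0.12 for Unc13a, and none passed (lowest adjusted p 0.332). Of all tested genes, 0.0398% passed between the sexes in stressed and 0.0455% in non-stressed mice. With all 16 libraries, no member had an unadjusted p under 0.05 in these sex comparisons, and neither DESeq2 nor limma called one. Cask, the X-linked member, had 57.8 to 64.5 CPM in stressed females and 57.9 to 63.6 CPM in stressed males (log2 difference -0.02 ± 0.07), and -0.09 ± 0.07 between non-stressed females and males. With SE of this size, differences as large as the interaction values were not detectable with 4 libraries a group.

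Of 8 family members (Rims3, Rims4, Unc13b, Unc13c, Ppfia1, Ppfia2, Ppfia4 and Tspoap1), 2 were higher and none lower in stressed males (median log2 fold change 0.39), and 6 were higher and none lower in stressed females (median 0.56). Over all tested genes, 18.5% were higher and 21.2% lower in males, and 22.1% higher and 27.3% lower in females, and the counts of the other lists stand against these shares too. In the trend-removed fit, 1 of the 8 was higher in each sex and the median was 0.06 in males and 0.08 in females. Of all genes in that fit, 16.6% were higher and 15.4% lower in males, and 18.0% higher and 21.3% lower in females. The trend-removed counts of the other lists stand against these shares. Unc13b, which encodes Munc13-2, had 0.53 ± 0.14 in males (adjusted p = 0.00694) and 0.63 ± 0.14 in females (adjusted p = 0.00188), at 22.7 kb, and -0.03 and 0.08 in the trend-removed fit. Unc13c, which encodes Munc13-3, had 0.76 ± 0.17 (adjusted p = 0.00215) in males and 0.66 ± 0.17 (adjusted p = 0.00459) in females, at 8.8 kb, and 0.49 and 0.38 in the trend-removed fit.

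Among 19 partners of the scaffold, changes went both ways: 5 were higher and 4 lower in stressed males (median 0.20), and 9 higher and 5 lower in stressed females (median 0.30). In the trend-removed fit 1 was higher and 4 lower in males (median 0.04), and 4 higher and 3 lower in females (median -0.01). Lin7a, whose protein forms a complex with CASK, was higher by 1.24 ± 0.17 in males (adjusted p = 3.6e-05) and 1.19 ± 0.17 in females (adjusted p = 4.5e-05), more than any of the 10 members although its exonic length is 3.3 kb. Its trend-removed values were 1.42 in males and 1.38 in females. Trio, a guanine nucleotide exchange factor of 23.4 kb, was higher by 0.58 ± 0.10 in both sexes (adjusted p = 3.1e-04 in males and 2.5e-04 in females), and had -0.04 and -0.10 with the trend removed. Rabac1, which encodes a prenylated Rab acceptor that binds piccolo, was lower, at -0.81 ± 0.13 in males (adjusted p = 2.0e-04) and -1.10 ± 0.14 in females (adjusted p = 1.2e-05), at a length of 1.5 kb. Tprgl, which encodes the bassoon-binding vesicle protein Mover, was lower, at -0.56 ± 0.10 in males (adjusted p = 2.5e-04) and -0.61 ± 0.10 in females (adjusted p = 1.1e-04), at 2.2 kb. With the trend removed, Rabac1 had -0.37 in males and -0.70 in females, and Tprgl -0.27 and -0.33.

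The docking, priming and release machinery with its calcium channels, 16 genes, had 4 higher and 3 lower in stressed males (median 0.09) and 6 higher and 3 lower in stressed females (median 0.19). Cacna1b, the pore subunit of N-type calcium channels, was higher by 0.78 ± 0.13 in males (adjusted p = 1.4e-04) and 0.74 ± 0.13 in females (adjusted p = 2.1e-04), with trend-removed values of 0.45 and 0.35. Rab3a, the vesicle GTPase that RIM binds, was lower, at -0.36 ± 0.09 in males (adjusted p = 0.00504) and -0.43 ± 0.09 in females (adjusted p = 0.0011), and Stx1a, a plasma membrane SNARE, was lower too, at -0.36 ± 0.09 (adjusted p = 0.00667) and -0.26 ± 0.09 (adjusted p = 0.029). Their trend-removed values were -0.06 and -0.15 for Rab3a and -0.14 and -0.08 for Stx1a. After the trend was removed none of the 16 was lower in either sex. In that fit 3 in males and 4 in females were higher, as were 16.6% and 18.0% of all genes. Of 8 kinases and phosphatases that act on the active zone, 3 were higher and 2 lower in stressed males (median 0.21), and 5 higher and 2 lower in stressed females (median 0.29). In the trend-removed fit 2 were higher and 1 lower in males, and 3 higher and 1 lower in females, with medians of 0.11 and -0.06. The protein kinase C genes Prkca (0.58 ± 0.11 in males, 0.59 ± 0.11 in females) and Prkcb (0.53 ± 0.10 and 0.30 ± 0.10) were higher; with the trend removed Prkca had 0.29 in both sexes and Prkcb 0.29 in males and -0.06 in females. Ppp3ca, a catalytic subunit of calcineurin, was lower, at -0.50 ± 0.14 in males (adjusted p = 0.00952) and -0.61 ± 0.14 in females (adjusted p = 0.00194) although its length is 10 kb, and Cdk5 was lower, at -0.35 ± 0.09 and -0.37 ± 0.09 (adjusted p = 0.00614 and 0.00338). With the trend removed Ppp3ca had -0.80 in males and -0.98 in females, and Cdk5, at 2.2 kb, -0.04 and -0.07.

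The cell types of the tissue were read from summed CPM of marker lists, in which no marker was at 0. The 6 neuronal markers summed to 5650 to 6190 CPM in stressed females, against 5230 to 5750 CPM in non-stressed females, and to 5760 to 5990 CPM in stressed males, against 5400 to 5600 CPM in non-stressed males. Of these 6, Map2, a microtubule-associated protein of dendrites at 16.5 kb, passed in both sexes (0.58 ± 0.10 in males and 0.63 ± 0.10 in females), with 0.07 and 0.08 in the trend-removed fit. Eno2 was lower in males (-0.18 ± 0.06, adjusted p = 0.0292), Syt1 was higher in females (0.31 ± 0.12, adjusted p = 0.0397), and the median of the 6 log2 fold changes was -0.02 in males and -0.07 in females. The 4 markers of hippocampal neurons (Prox1, Wfs1, Zbtb20 and Neurod6) summed to 752 to 804 CPM in stressed females, against 514 to 648 CPM in non-stressed females, and to 737 to 816 CPM in stressed males, against 525 to 622 CPM in non-stressed males. Prox1, Wfs1 and Zbtb20 were higher in both sexes, Zbtb20 (30.7 kb) by 0.93 ± 0.12 in males and 0.84 ± 0.12 in females, with 0.31 and 0.23 in the trend-removed fit. Neurod6, which is also 1 of the 3 excitatory markers, was lower in males (-0.23 ± 0.08, adjusted p = 0.0413) and had -0.11 ± 0.08 in females. Its sign turned in the trend-removed fit, to 0.19 in males and 0.36 in females. In that fit 3 of the 4 hippocampal markers were higher in males and 4 in females, and none was lower. Of all genes in that fit, 16.6% in males and 18.0% in females were higher. The 3 excitatory markers ran from 4860 to 5220 CPM in stressed females, against 1990 to 5030 CPM in non-stressed females, and from 4590 to 5760 CPM in stressed males, against 3530 to 5350 CPM in non-stressed males. The 3 inhibitory markers ran from 533 to 541 CPM in stressed females, against 482 to 571 CPM in non-stressed females, and from 534 to 648 CPM in stressed males, against 473 to 585 CPM in non-stressed males. Gad2 was higher in both sexes (0.44 ± 0.13 in males and 0.38 ± 0.13 in females), with 0.36 and 0.3 in the trend-removed fit. Gad1 and Slc32a1 passed in neither sex in the test on counts. The 4 astrocyte markers ran from 1210 to 1440 CPM in stressed females, against 1100 to 1280 CPM in non-stressed females, and from 1170 to 1290 CPM in stressed males, against 1220 to 1270 CPM in non-stressed males. The 3 endothelial markers ran from 34.2 to 39.5 CPM in stressed females, against 41.8 to 57.2 CPM in non-stressed females, and from 30.4 to 40.1 CPM in stressed males, against 35.6 to 42.5 CPM in non-stressed males. Cldn5, at 1.4 kb, was lower in both sexes (-0.77 ± 0.20 in males and -0.99 ± 0.20 in females). Pecam1 was lower in females (-0.43 ± 0.12) and Flt1, at 13.5 kb, was higher in males (0.50 ± 0.16). With the trend removed, Cldn5 had -0.32 in males and -0.58 in females, Pecam1 -0.35 and -0.64, and Flt1 0.05 and -0.21. The 4 oligodendrocyte markers ran from 3960 to 4570 CPM in stressed females, against 4350 to 5300 CPM in non-stressed females, and from 3410 to 4600 CPM in stressed males, against 4430 to 5030 CPM in non-stressed males. Mog, at 1.7 kb, was lower in both sexes (-0.32 ± 0.12 in males and -0.38 ± 0.12 in females), with 0.08 and 0.02 in the trend-removed fit. The 4 microglial markers ran from 202 to 260 CPM in stressed females, against 196 to 225 CPM in non-stressed females, and from 195 to 212 CPM in stressed males, against 207 to 223 CPM in non-stressed males. C1qa (-0.58 ± 0.17 in males and -0.47 ± 0.17 in females) and P2ry12 (-0.25 ± 0.1 and -0.26 ± 0.1) were lower in both sexes, and Csf1r was higher in females (0.41 ± 0.1). With the trend removed, C1qa had -0.07 in males and -0.0 in females, and P2ry12 0.11 and 0.17. The 3 choroid plexus markers ran from 1510 to 4470 CPM in stressed females, against 2090 to 6410 CPM in non-stressed females, and from 1450 to 5520 CPM in stressed males, against 2530 to 7820 CPM in non-stressed males. The 3 blood markers ran from 60.1 to 72.3 CPM in stressed females, against 66.8 to 203 CPM in non-stressed females, and from 60.9 to 273 CPM in stressed males, against 54.8 to 106 CPM in non-stressed males. The part of these cell types in the members' differences was not tested.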

How the data were processed

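Gene counts and FPKM were deposited by the authors in 1 table of 16 libraries. HISAT2 2.0.1 and HTSeq 0.6.1 are listed in the submitters' processing notes, with GRCm39 as the build. The strand setting and annotation release are not given in the sources used here. FPKM, per the file headers, are the authors' own, and recomputing them from the counts and the deposited exonic length in bases (other) gave differences of at most 0.005. Totals ran from 15.2 to 32.5 M counts, and no pair of replicates was the same within sampling noise (chi-square over degrees of freedom at least 2.96).

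The filter kept genes that reached an FPKM of 0.5 in 4 or more libraries. Their counts went into edgeR 4.0.16 under R 4.3.3, with TMM scaling, a quasi-likelihood test and a mean for each of the 4 groups over all 16 libraries; the SE is the log2 fold change over the square root of F. CPM in the text are counts over library totals. GC content came from GENCODE M21 transcripts matched by Ensembl identifier (98.8% of tested genes), and length and GC trends were removed by splines as offsets. Alternatives used DESeq2 1.42.0, limma 3.58.1, other scalings, filters and left-out libraries. Ratios of paralogs were compared with 2-sided exact permutation tests. Symbols were missing for 1438 genes, and such genes were kept in the tests.

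The members and lists were chosen with earlier results of these data known. All members are described; of each other list, up to 2 genes with the largest rise and 2 with the largest fall among those that passed in both sexes are named. A gene that this rule allows is not reported here.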

Additional observations from a re-analysis of the deposited data

Results flagged for a closer look

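Of 56 groups of 4 libraries checked (members, ratios and shares), 1 had a library far from the others. Chance alone flags about 1 group in 20, which is a larger share than was found. Erc1 had 78.2 CPM in stressed male library 3, against 65.8 to 67.6 CPM in the other 3 stressed male libraries, a gap of 0.85 of the group's range. This library has a pool size of 1 and the largest total, 32.5 M counts, and the part of either was not tested. Without it the male log2 fold change of Erc1 was 0.83 and passed.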

How the results depend on the processing

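With the length and GC trend removed, 3 members were higher in each sex and 1 lower in each sex. Of all genes in that fit, 16.6% in males and 18.0% in females were higher, and 15.4% and 21.3% lower. With length alone removed, 3 members were higher in each sex and 1 lower in males. There 2546 of the 17569 tested genes in males and 2925 in females were higher, and 2378 and 3504 lower. Signs turned for Cask, to -0.15 and -0.13 in males and -0.11 and -0.10 in females under those fits, and for Ppfia3 in females, to -0.25 and -0.16, and to -0.09 without non-stressed female libraries 1 and 4; in males Ppfia3 turned to 0.13 on the TPM scale. On that scale 75.3% of calls in males and 73.8% in females were higher, against 44.3% and 46.5% with limma on FPKM. The cause of these changes was not tested. Fitted to the compared groups alone, 9 members were higher in males and 6 in females. In those fits 4412 of the 17569 tested genes were higher in males and 2732 in females. Leaving out each library in turn gave 6 to 8 members higher in males and 7 to 9 in females. Of the tested genes, 2765 to 3997 were then higher in males and 3034 to 4946 in females. Ppfia3 in females ran from -0.01 to 0.22. Under the same omission the log2 ratios ran from -0.11 to 0.01 for Bsn/Pclo between the sexes in stressed mice, from -0.03 to 0.05 for Rims1/Rims2 and from -0.04 to 0.01 for Erc1/Erc2 there, from -0.24 to 0.04 for Erc1/Erc2 between the sexes in non-stressed mice, and from 0.00 to 0.09 for Rims1/Rims2 in stressed against non-stressed males. All 10 members have an opposite-strand gene within 5 kb, so the fit to genes without one could not be made. A fit to genes with no tested opposite-strand gene was chosen after seeing the data, as was length alone. It left 6 members, of which 5 were higher in males and 6 in females. Of its 9344 genes, 1683 in males and 2020 in females were higher. With the replicate number as a block, 6 members were higher in males and 9 in females, and no member's call changed. Of the tested genes, 3256 in males and 3959 in females were higher in that fit. Same-numbered libraries correlated from -0.207 to 0.155, and the main test did not pair them. These correlations cannot show whether the numbers mark a pairing in the design. Over all alternatives except the fits that left out each library in turn, 288 single-member values kept their call, 24 lost it and 12 gained it. The other 8 changed sign, and these are the sign turns of Cask and Ppfia3 given above.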
